A study of Homo sapiens with 6 samples.

Results

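MHC class I and peptide loading genes encode the machinery by which a cell shows fragments of its own proteins at its surface. The 9 genes described here were taken by name: HLA-B, HLA-C and HLA-E for the heavy chains, B2M for the light chain, TAP1 and TAP2 for the peptide transporter, TAPBP and CALR for the loading complex, and ERAP1 for peptide trimming. They are 9 of the 11593 gene symbols in the deposited tables and 21 of the 28768 transcript rows. Each gene's value is the sum of its rows in FPKM, fragment density scaled to transcript length and to the library's size. RNA was sequenced in 6 libraries of SK-Hep1 cells, a human line labelled as hepatocellular carcinoma. In 3 libraries the biotinylated ChIRP probes were the complete set against SNHG10, a long noncoding RNA, and in 3 control libraries the probes were a control set against LacZ, a gene of bacterial origin. All libraries came from the same cell line, with no other genotype or treatment in the labels, and SNHG10 itself had no row here and was not analysed. The series' design says that RNA retrieved with the probes was sequenced to find mRNAs that SNHG10 binds, whereas the protocol in the labels describes total RNA with no pull-down. Which of these holds cannot be read from the sources used here, so a difference between probe sets is given below as a difference and not as binding. The labels do not say whether replicates were separate cultures, so every p-value below refers to the spread among libraries, and that spread may be technical.

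Class I molecules are made of a heavy chain that carries the peptide and of beta-2-microglobulin, the product of B2M. Proteasomes cut cytosolic proteins into peptides, the TAP1 and TAP2 proteins pump these into the endoplasmic reticulum, and ERAP1 trims them. There tapasin, the product of TAPBP, bridges TAP to an empty class I molecule while calreticulin, the product of CALR, holds its sugar chain, until a well-fitting peptide is loaded. Most nucleated cells express the pathway, interferons raise it, and its loss lets tumour cells escape cytotoxic T cells.

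Promoter windows of the members are shown first because they carry the letters through which the class I genes are known to be switched on. The windows are those of RefSeq on GRCh38.p14, each running from 250 bases before a gene's start to 50 after it, and 8 of the 9 members were matched, with 10 windows in all. The first 250 bases, before the start, are printed 5' to 3' on the gene's strand. Capitals mark matches, on either strand, to GAAANNGAA (a GAAA run followed by a GAA run, as in sites of interferon regulatory factors), GGGGANTCC (a site of the NF-kappaB family) or CCAAT (the box bound by NFY). B2M, TAPBP and TAP1 are given for the interferon pair, and HLA-B and HLA-C for comparison between heavy chains.
B2M: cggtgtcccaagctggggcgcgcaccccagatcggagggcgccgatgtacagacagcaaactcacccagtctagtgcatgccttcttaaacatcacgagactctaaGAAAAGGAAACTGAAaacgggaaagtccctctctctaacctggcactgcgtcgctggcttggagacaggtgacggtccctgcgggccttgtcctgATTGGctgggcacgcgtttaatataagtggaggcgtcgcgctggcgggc
TAPBP: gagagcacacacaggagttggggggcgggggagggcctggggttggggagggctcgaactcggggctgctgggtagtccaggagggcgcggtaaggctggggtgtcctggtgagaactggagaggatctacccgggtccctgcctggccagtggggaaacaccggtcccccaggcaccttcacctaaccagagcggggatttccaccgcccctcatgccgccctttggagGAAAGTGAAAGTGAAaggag
TAP1: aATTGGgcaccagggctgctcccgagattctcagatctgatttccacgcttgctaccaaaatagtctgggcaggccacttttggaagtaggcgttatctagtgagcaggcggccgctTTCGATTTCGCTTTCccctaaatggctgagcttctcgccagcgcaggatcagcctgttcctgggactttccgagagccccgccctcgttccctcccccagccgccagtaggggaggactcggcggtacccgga
HLA-B: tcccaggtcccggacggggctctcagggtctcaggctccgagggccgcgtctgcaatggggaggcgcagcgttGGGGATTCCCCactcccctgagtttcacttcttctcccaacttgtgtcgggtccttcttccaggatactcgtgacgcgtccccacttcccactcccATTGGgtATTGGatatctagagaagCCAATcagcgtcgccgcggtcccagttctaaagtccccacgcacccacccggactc
HLA-C: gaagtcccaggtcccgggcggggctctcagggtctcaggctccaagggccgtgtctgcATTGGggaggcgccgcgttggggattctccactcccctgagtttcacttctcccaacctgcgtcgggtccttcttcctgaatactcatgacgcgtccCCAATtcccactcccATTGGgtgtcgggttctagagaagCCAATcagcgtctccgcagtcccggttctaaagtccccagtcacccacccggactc
The windows lie at chr15:44711267-44711516 on the plus strand for B2M, and on the minus strand at chr6:33314079-33314328 for TAPBP, chr6:32853705-32853954 for TAP1, chr6:31357180-31357429 for HLA-B and chr6:31272093-31272342 for HLA-C.

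The interferon pair was found in the windows of 5 of the 8 matched genes, B2M, ERAP1, TAP1, TAP2 and TAPBP. The pattern takes the GAAA run first, so the reverse order, a GAA run followed by a GAAA run, was not searched. The HLA-B and HLA-C windows hold that order on the other strand, as the unmarked letters tttcacttc. They are therefore not shown to lack an interferon site. By window it was found in 5 of the 10, against 8.11% of all 35116 RefSeq windows. In B2M, TAPBP and TAP1 it occurred as overlapping matches in one run. The kappaB letters GGGGANTCC were found only in the HLA-B window among the members, where both strands match, and in 1.53% of all windows. Other forms of such a site were not searched, so the other members are not shown to lack one. Similar letters stand unmarked in TAP1 (gggactttcc) and B2M (gggaaagtccc). CCAAT was found in B2M, CALR, ERAP1, HLA-B, HLA-C and TAP1, and in 34.61% of all windows. The HLA-B and HLA-C windows matched at 269 of 296 aligned bases, 90.9%. A match is a description of these letters in the reference sequence, and no binding was measured.

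The members differed widely in level, and 3 steps in their order held in every library. CALR was the most abundant, at 225 ± 46.3 FPKM with SNHG10 probes and 219 ± 14.7 FPKM with LacZ probes (SD, n = 3 each). Its mean over the 6 libraries was above that of 98.65% of all listed genes. TAPBP, HLA-E and B2M came next, TAP1, HLA-B and TAP2 lower, and ERAP1 was near the middle of all genes, with 44.34% of them below it. HLA-C was listed at 0 in 5 of the 6 libraries. The step between CALR and TAPBP, that between B2M and TAP1, and that between TAP2 and ERAP1 each separated all 6 libraries of one gene from all 6 of the next. Other neighbours overlapped over the libraries, namely TAPBP with HLA-E, HLA-E with B2M, TAP1 with HLA-B, HLA-B with TAP2, and ERAP1 with HLA-C, and in each of these 5 pairs the order of the means held in 5 of 6 libraries.

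**Figure D1:**
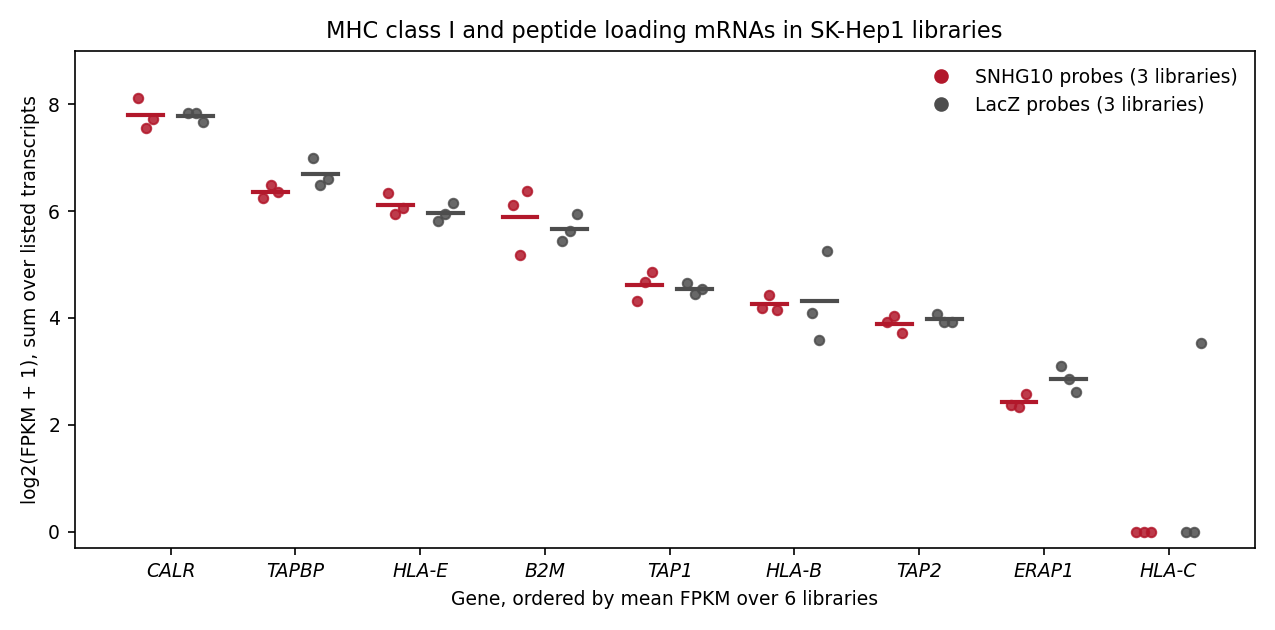
Level of each of the 9 genes as log2(FPKM + 1), ordered by mean FPKM, with SNHG10 probes left of LacZ probes; points are libraries and lines are means, except HLA-C, which has no line. CALR lay highest in every library, and HLA-C was above 0 only in LacZ replicate 3.

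Together the 9 genes held 0.206%, 0.162% and 0.184% of the summed FPKM with SNHG10 probes, against 0.188%, 0.172% and 0.191% with LacZ probes. The means were 0.184 ± 0.0222% and 0.184 ± 0.0102% (SD, n = 3 each), and the libraries overlapped. In bulk libraries such as these, fewer cells that express a gene and less of its RNA per cell cannot be told apart. CALR alone made up 42.1% to 49.9% of the members' sum with SNHG10 probes and 39.0% to 47.6% with LacZ probes.

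None of the 8 members that could be tested was called different between the probe sets, which does not show that their levels were equal. The test was limma on log2(FPKM + 1) over the 10304 genes that reached 1 FPKM in 3 libraries or more, with Benjamini-Hochberg adjusted p-values and a threshold of 0.05. No gene in the whole table passed it (0% called), and 5.42% of the genes, 558 in all, had an unadjusted p under 0.05, against 0 of the 8 members. Of the 8 log2 differences, SNHG10 probes minus LacZ probes, 4 were positive and 4 negative, with a median of -0.02 against -0.05 over all tested genes. In 2 members, TAPBP and ERAP1, the libraries of the probe sets did not overlap, both lower with SNHG10 probes. Among all tested genes, 11.4% did not overlap, and 7.21% did not overlap and were lower with SNHG10 probes. With 3 libraries against 3, the exact two-sided permutation test over the 20 assignments cannot go below 0.1.

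**Figure D2:**
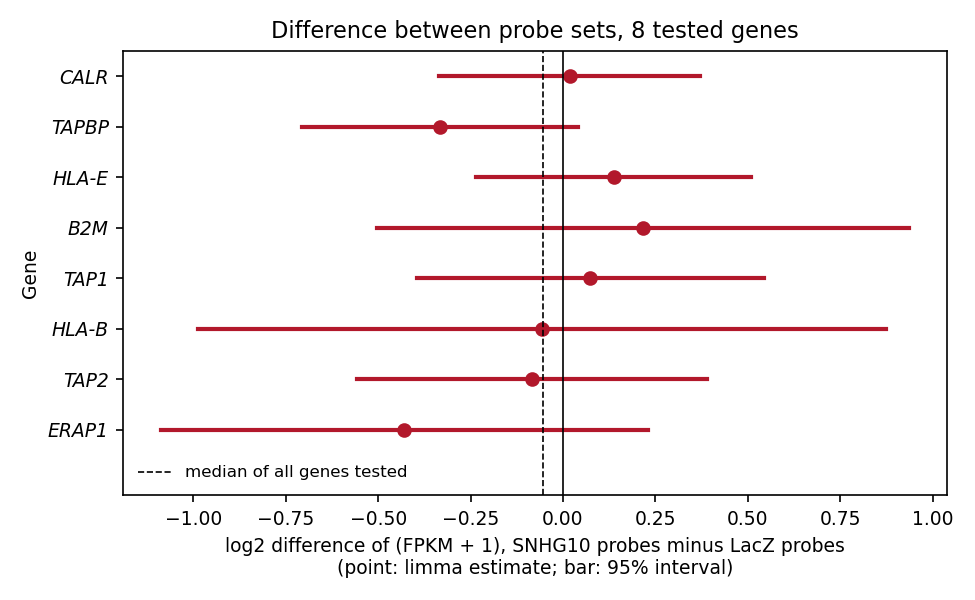
log2 difference of each tested member, SNHG10 probes minus LacZ probes, on the log2(FPKM + 1) scale, with 95% limma intervals; the dashed line is the median of all tested genes. Every interval includes 0, and the widest, that of HLA-B, runs from -0.99 to 0.87.

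Among the heavy chains, HLA-E was the main one listed. HLA-E (ENSG00000204592.8_2, chr6:30457244-30461982 on the plus strand, hg19) presents leader peptides of other class I chains to receptors of natural killer cells. It was at 79.6, 60.3 and 65.4 FPKM with SNHG10 probes, against 55.5, 60.5 and 69.8 FPKM with LacZ probes. The groups overlapped, with the highest value in SNHG10 replicate 1 and the lowest in LacZ replicate 1. The log2 difference was 0.14 ± 0.16 (SE; 95% interval -0.23 to 0.51; limma adjusted p = 0.933; exact permutation p = 0.5), and it was 0.03 without SNHG10 replicate 1 and 0.23 without LacZ replicate 3. HLA-E made up 82.2%, 74.7% and 79.5% of the summed FPKM of HLA-B, HLA-C and HLA-E with SNHG10 probes, against 77.6%, 84.6% and 59.3% with LacZ probes.

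HLA-B (ENSG00000234745.10_2, chr6:31237268-31324964 on the minus strand), a classical chain that presents peptides to cytotoxic T cells, was listed at 17.2, 20.5 and 16.9 FPKM with SNHG10 probes. With LacZ probes it was at 16.0, 11.0 and 37.3 FPKM. LacZ replicate 3 stood above all the others and LacZ replicate 2 below them, so the SNHG10 libraries lay inside the LacZ range. The log2 difference was -0.06 ± 0.40 (SE; 95% interval -0.99 to 0.87; limma adjusted p = 0.992; exact permutation p = 1.0). Its sign followed the libraries included, from -0.42 without LacZ replicate 2 to 0.42 without LacZ replicate 3, and median-ratio scaling brought it to 0.000335. HLA-C (ENSG00000204525.16_2, chr6:31236526-31239863 on the minus strand), a classical chain and the main ligand of killer-cell inhibitory receptors, was listed at 0 in all 3 SNHG10 libraries. With LacZ probes it was at 0, 0 and 10.5 FPKM. It was not tested, since only LacZ replicate 3 was above 0, the same library that had the highest HLA-B value.

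HLA-B and HLA-C are related genes, and the listed rows of both are uncertain. Only their promoter windows were compared here, which matched at 90.9% of aligned bases. One HLA-B row, HLA-B-258, spans 85914 bases (chr6:31237268-31323181) and covers 2596 bases, 77.77%, of the span of the only HLA-C row, HLA-C-203, on the same strand. HLA-B-258 was at 3.39, 4.19 and 8.56 FPKM with SNHG10 probes, against 6.46, 1.63 and 5.25 FPKM with LacZ probes. The more abundant HLA-B-249 was at 13.8, 16.3 and 8.30 FPKM with SNHG10 probes, against 9.55, 9.40 and 28.2 FPKM with LacZ probes. The HLA-B-257 row was at 0 except in LacZ replicate 3, where it was at 3.86 FPKM. How the authors' processing shared reads among these genes is not given in the sources used here.

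B2M (ENSG00000166710.17_2, chr15:45003675-45011075 on the plus strand) encodes the light chain shared by all class I molecules. It was at 68.3, 35.1 and 82.1 FPKM with SNHG10 probes, against 42.2, 48.7 and 60.5 FPKM with LacZ probes. The SNHG10 libraries held both the lowest and the highest value, on either side of the LacZ range. The log2 difference was 0.22 ± 0.31 (SE; 95% interval -0.50 to 0.94; limma adjusted p = 0.943; exact permutation p = 0.5), and it reached 0.58 without SNHG10 replicate 2 and -0.03 without SNHG10 replicate 3. Per library, B2M was 0.706, 0.434 and 0.999 times the summed heavy chains HLA-B, HLA-C and HLA-E with SNHG10 probes, against 0.59, 0.681 and 0.514 times with LacZ probes. B2M was below that sum in all 6 libraries.

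The leading B2M row, B2M-204, was at 65.1, 9.45 and 65.9 FPKM with SNHG10 probes, against 15.2, 20.5 and 22.7 FPKM with LacZ probes. SNHG10 replicates 1 and 3 were above, and replicate 2 below, every LacZ library. Its log2 difference was 0.83 ± 0.74 (SE; limma adjusted p = 0.951 over 16618 transcript rows). It was 1.72 without SNHG10 replicate 2 (limma adjusted p = 0.249) and 0.38 without SNHG10 replicate 3, with adjusted p-values of 0.249 to 0.988 when a library was left out. B2M-208 was at 3.21, 13.2 and 10.4 FPKM with SNHG10 probes, against 12.8, 28.3 and 9.73 FPKM with LacZ probes. B2M-204 carried most of B2M in SNHG10 replicates 1 and 3. B2M-208 exceeded it in SNHG10 replicate 2 and LacZ replicate 2, and B2M-202 did so in SNHG10 replicate 2, at 12.4 FPKM, and LacZ replicate 3, at 28.1 FPKM.

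The peptide transporter was listed at intermediate levels. TAP1 (ENSG00000168394.10_2, chr6:32812986-32821755 on the minus strand) was at 19.0, 24.7 and 28.2 FPKM with SNHG10 probes, against 24.3, 20.8 and 22.3 FPKM with LacZ probes. The SNHG10 libraries spanned the LacZ range (log2 difference 0.07 ± 0.20, SE; 95% interval -0.40 to 0.54; limma adjusted p = 0.968; exact permutation p = 0.6). TAP2 (ENSG00000204267.13_3, chr6:32793187-32806557 on the minus strand), its partner, was at 14.2, 15.4 and 12.1 FPKM with SNHG10 probes, against 15.9, 14.1 and 14.2 FPKM with LacZ probes. These also overlapped (log2 difference -0.08 ± 0.20, SE; 95% interval -0.56 to 0.39; limma adjusted p = 0.968; exact permutation p = 0.5). The transporter works as a pair of 1 chain each, and the listed level of TAP1 was 1.34, 1.60 and 2.33 times that of TAP2 with SNHG10 probes, against 1.53, 1.48 and 1.57 times with LacZ probes.

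TAP2 had the lowest coefficient of variation over the 6 libraries among the members, 9.13%, while its rows traded places. TAP2-201 was at 3.50, 15.4 and 12.1 FPKM with SNHG10 probes, against 5.56, 4.97 and 4.23 FPKM with LacZ probes. TAP2-205, named here after its values were seen, was at 10.7, 0 and 0 FPKM with SNHG10 probes, against 10.3, 9.13 and 9.93 FPKM with LacZ probes. SNHG10 replicates 2 and 3 thus held all of their TAP2 in TAP2-201, and the other 4 libraries most of it in TAP2-205. The coefficients of variation of the rows were 64.26% and 77.84%. Neither row was called different between the probe sets, which does not show that its levels were equal. The log2 difference of TAP2-201 was 0.746 ± 0.535 (SE; limma adjusted p = 0.951). That of TAP2-205 was -2.25 ± 0.996 (SE; limma adjusted p = 0.938). Without SNHG10 replicate 1 the log2 difference was 1.31 for TAP2-201 and -3.43 for TAP2-205 (limma adjusted p = 0.246 for TAP2-205), and a listed 0 can be a failed estimate.

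**Figure D3:**
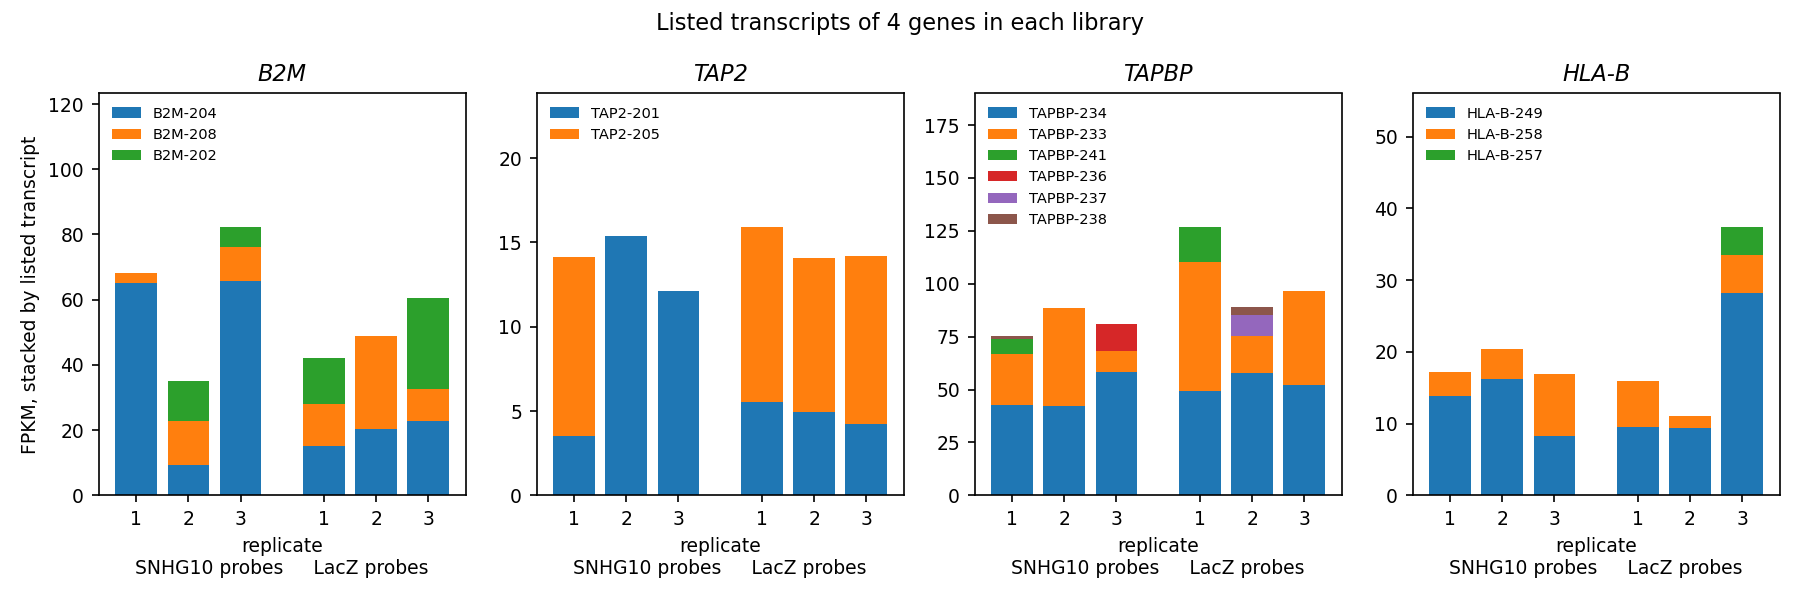
Bars stack the FPKM of the listed transcript rows of B2M, TAP2, TAPBP and HLA-B in each library, SNHG10 probes left of LacZ probes, each panel with its own axis from 0. In TAP2 the rows trade places while the sum stays between 12.1 and 15.9 FPKM, and LacZ replicate 3 stands out in HLA-B.

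The bridging factor of the loading complex, TAPBP (ENSG00000231925.11_2, chr6:33267471-33282164 on the minus strand), was at 75.3, 88.3 and 80.8 FPKM with SNHG10 probes. With LacZ probes it was at 127, 88.8 and 96.4 FPKM. All 3 SNHG10 libraries lay below all 3 LacZ libraries, and the nearest pair was SNHG10 replicate 2 and LacZ replicate 2. The log2 difference was -0.33 ± 0.16 (SE; 95% interval -0.71 to 0.04; limma adjusted p = 0.885; exact permutation p = 0.1), and leaving out LacZ replicate 1 moved it to -0.18. The libraries overlapped once they were scaled by median ratios, where the highest SNHG10 value was 90.7 and the lowest LacZ value 87.0 FPKM. Per library, TAPBP was 3.96, 3.58 and 2.87 times TAP1 with SNHG10 probes, against 5.21, 4.26 and 4.33 times with LacZ probes. This ratio is given with no test, and its numerator already did not overlap between probe sets, while TAP1 did. Of its 6 rows TAPBP-234 led, at 42.6, 42.3 and 58.5 FPKM with SNHG10 probes, against 49.1, 57.9 and 52.1 FPKM with LacZ probes, and these overlapped. TAPBP-233 ranged more widely, at 24.0, 46.0 and 9.57 FPKM with SNHG10 probes, against 61.3, 17.2 and 44.3 FPKM with LacZ probes. Without TAPBP-233 the summed rows of TAPBP were at 51.3, 42.3 and 71.3 FPKM with SNHG10 probes. With LacZ probes they were at 65.3, 71.6 and 52.1 FPKM, so the probe sets overlapped.

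CALR (ENSG00000179218.13_2, chr19:13049421-13055303 on the plus strand) encodes a chaperone of many glycoproteins besides class I. It was at 276, 186 and 212 FPKM with SNHG10 probes, against 229, 227 and 202 FPKM with LacZ probes. SNHG10 replicate 1 was the highest library and SNHG10 replicate 2 the lowest, with the LacZ libraries between them. The log2 difference was 0.02 ± 0.15 (SE; 95% interval -0.34 to 0.37; limma adjusted p = 0.992; exact permutation p = 0.9), and quantile normalization turned its sign (-0.02). The row CALR-201 carried 93.26% of the gene. Calnexin, encoded by CANX, is the membrane-bound relative of calreticulin that holds newly made heavy chains before B2M joins. CALR was 2.67, 2.41 and 2.74 times CANX with SNHG10 probes, against 1.67, 1.81 and 1.80 times with LacZ probes, a ratio chosen after its values were seen and given with no test. The numerator overlapped between probe sets and CANX did not.

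ERAP1 (ENSG00000164307.12_3, chr5:96110188-96143612 on the minus strand), the aminopeptidase that trims peptides to a length that class I can hold, was the lowest of the tested members. It was at 4.18, 4.07 and 4.93 FPKM with SNHG10 probes, against 7.62, 6.26 and 5.09 FPKM with LacZ probes. All SNHG10 libraries lay below all LacZ libraries, with SNHG10 replicate 3 close to LacZ replicate 3. The log2 difference was -0.43 ± 0.28 (SE; 95% interval -1.09 to 0.23; limma adjusted p = 0.928; exact permutation p = 0.1). After median-ratio scaling the libraries touched, with a highest SNHG10 value of 4.96 and a lowest LacZ value of 4.92 FPKM.

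By transcript row, 14 of the 21 member rows were tested and 0 were called, against 15 of 16618 rows in the whole table (0.0903% called). The single member row whose libraries did not overlap was the one row of ERAP1, ERAP1-202, against 10.5% of all rows. Of the 21 rows, 10 were listed at 0 in at least 1 library, 47.6%, against 61.4% of all rows.

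The 6 members on chromosome 6 lie in the major histocompatibility complex, and their neighbours were also read. The stretch chosen after seeing the data, chr6:29691056-33282164 (hg19), lists 87 genes beside the 6 members, of which 75 were tested. None was called (0 by limma at the adjusted threshold, 3 with an unadjusted p under 0.05). In 10 of the 75 the libraries did not overlap, 2 higher and 8 lower with SNHG10 probes, against 11.4% without overlap, 7.21% lower without overlap and 5.42% with an unadjusted p under 0.05 among all tested genes. The median log2 difference of the 75 was -0.08.

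Genes that work around the members were described from 8 lists of pathway genes, and no gene of these lists passed the limma test (the lowest adjusted p of any gene in the table was 0.316). Each list's median log2 difference is to be read beside -0.05 over all tested genes, and each count of genes without overlap beside the 11.4% of all tested genes that had none. In the lists of 10 to 16 genes that count was 0 or 1. Counts of positive and negative differences are to be read beside 4458 positive and 5846 negative over all tested genes. Among 9 tested class I-like chains the median was -0.09, with 4 positive and 5 negative. MICA and MICB, stress-induced ligands of the receptor NKG2D, did not overlap and were lower with SNHG10 probes. MICA was at 19.7, 23.4 and 10.8 FPKM with SNHG10 probes, against 25.6, 25.9 and 28.0 FPKM with LacZ probes (log2 difference -0.60 ± 0.28, SE; limma adjusted p = 0.885), and without SNHG10 replicate 3 the difference was -0.29. ULBP1, another NKG2D ligand, did not overlap in the other direction, averaging 3.68 ± 1.02 FPKM with SNHG10 probes and 2.24 ± 0.30 FPKM with LacZ probes (SD, n = 3 each). PROCR, the endothelial protein C receptor with a class I-like fold, averaged 48.2 ± 5.12 and 51.3 ± 5.11 FPKM in the same order.

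**Figure D4:**
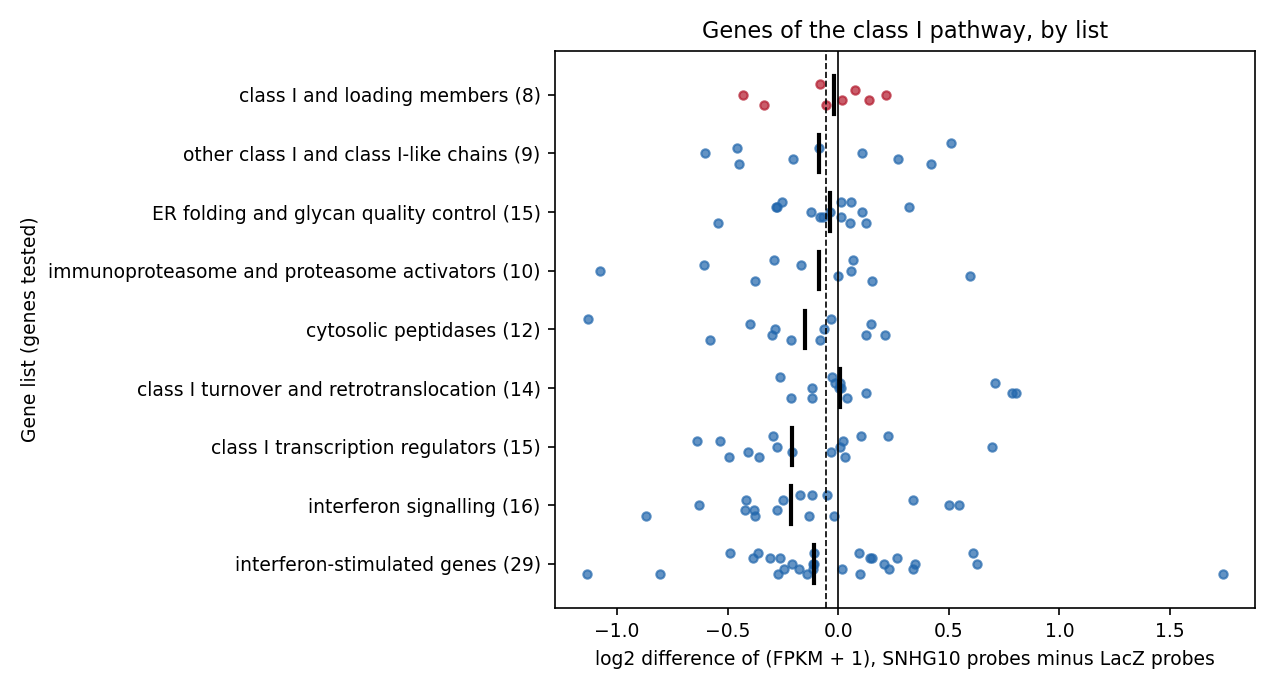
log2 difference, SNHG10 probes minus LacZ probes, of each tested gene among the members (red) and in the 8 pathway lists (blue), on the log2(FPKM + 1) scale, with a bar at the median of each list and a dashed line at the median of all tested genes. The medians of the lists ran from -0.21 to 0.01, and no gene passed the limma threshold.

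Of 15 tested folding and quality control genes of the endoplasmic reticulum, 1 did not overlap, and the median was -0.04. That gene was CANX, at 104, 77.4 and 77.2 FPKM with SNHG10 probes, against 137, 126 and 112 FPKM with LacZ probes (log2 difference -0.54 ± 0.16, SE; limma adjusted p = 0.875). HSPA5, the main chaperone of the compartment, averaged 130 ± 12.9 FPKM with SNHG10 probes and 129 ± 1.28 FPKM with LacZ probes (SD, n = 3 each). P4HB, a disulfide isomerase, and CNPY2 overlapped.

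Of 10 proteasome genes, 1 did not overlap, and the median was -0.085. PSMB10, an interferon-induced catalytic subunit of the immunoproteasome, was at 0.59, 0.605 and 0 FPKM with SNHG10 probes, against 1.82, 1.56 and 2.33 FPKM with LacZ probes. PSMB10 reached the 1 FPKM of the filter in the LacZ libraries alone, so its lack of overlap followed from the filter. All its values were low. Its partner PSMB9, whose promoter TAP1 shares in the opposite direction, was at 34.4, 37.0 and 36.1 FPKM with SNHG10 probes, against 25.1, 13.3 and 37.7 FPKM with LacZ probes, and overlapped. PSME1, a subunit of the activator PA28, was at 51.8, 30.3 and 33.4 FPKM with SNHG10 probes, against 54.8, 68.2 and 51.0 FPKM with LacZ probes. The constitutive subunits PSMB6 and PSMB7 overlapped.

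Of 12 cytosolic peptidases, which shorten peptides before transport, 1 did not overlap, with 3 positive and 9 negative differences and a median of -0.15. LAP3, an interferon-induced leucine aminopeptidase, averaged 7.07 ± 5.82 FPKM with SNHG10 probes and 14.8 ± 6.86 FPKM with LacZ probes (SD, n = 3 each), with overlap. Of 14 genes for turnover of misfolded class I and other proteins, 1 did not overlap, with 8 positive and 6 negative differences (10 and 4 with median-ratio scaling) and a median of 0.01. UBE2J2, a ubiquitin-conjugating enzyme of that compartment, was at 34.8, 26.2 and 24.9 FPKM with SNHG10 probes, against 14.7, 14.5 and 19.3 FPKM with LacZ probes (log2 difference 0.79 ± 0.22, SE; limma adjusted p = 0.864). SYVN1, VCP and MARCH4 overlapped.

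Of 15 tested regulators of class I transcription, 0 were without overlap and the median was -0.21, with 6 positive and 9 negative. RFX5, a subunit of the factor that binds the X box of MHC promoters, averaged 11.8 ± 2.39 FPKM with SNHG10 probes and 16.2 ± 4.68 FPKM with LacZ probes (SD, n = 3 each). RFXAP, another listed regulator, went the other way at low levels, averaging 1.76 ± 0.62 and 0.84 ± 0.95 FPKM in the same order. Both overlapped, with log2 differences of -0.41 for RFX5 and 0.69 for RFXAP. Of 16 interferon signalling genes, 3 differences were positive and 13 negative, or 5 and 11 with median-ratio scaling, and the median was -0.21. Without that scaling, 4458 differences were positive and 5846 negative over all tested genes. SOCS1, which restrains interferon signalling, was the one gene of the list without overlap, at 2.13, 1.20 and 2.63 FPKM with SNHG10 probes, against 4.11, 3.00 and 3.51 FPKM with LacZ probes.

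Of 29 tested interferon-stimulated genes, 4 did not overlap, against 11.4% of all tested genes, 2 higher and 2 lower with SNHG10 probes, and the median was -0.11. IFITM1, one of the membrane proteins that block virus entry, was at 4.48, 8.22 and 3.07 FPKM with SNHG10 probes, against 1.21, 0 and 1.497 FPKM with LacZ probes (log2 difference 1.74 ± 0.49, SE; limma adjusted p = 0.864). The more abundant IFITM3 was at 375, 434 and 293 FPKM with SNHG10 probes, against 270, 282 and 303 FPKM with LacZ probes, and overlapped. IFITM genes are related copies whose sequences were not compared here, so how reads were divided among them is uncertain. PARP9 did not overlap and was lower with SNHG10 probes, averaging 2.61 ± 0.69 FPKM with them and 5.38 ± 1.75 FPKM with LacZ probes (SD, n = 3 each).

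Markers of the labelled cell type were nearly absent. Of 12 hepatocyte markers 2 were listed and 0 were tested, and their summed FPKM was 1.0 to 1.7 with SNHG10 probes and 1.2 to 2.1 with LacZ probes, and the albumin gene ALB was not among the rows used here. Of 11 endothelial markers, 3 were listed, summing to 42.4 to 51.2 FPKM with SNHG10 probes and 46.4 to 61.8 FPKM with LacZ probes. Of these EGFL7, a factor secreted by endothelial cells, did not overlap and was at 8.30, 7.45 and 8.18 FPKM with SNHG10 probes, against 26.0, 18.8 and 14.0 FPKM with LacZ probes (log2 difference -1.16 ± 0.27, SE; limma adjusted p = 0.778). ENG and ROBO4, the others listed, overlapped, and their log2 differences were positive, 0.04 and 0.23. ENG averaged 35.9 FPKM with SNHG10 probes and 35.0 FPKM with LacZ probes, and ROBO4 1.66 and 1.28 FPKM. Of 20 class II and leukocyte markers 10 were listed, summing to 384.5 to 405.2 FPKM with SNHG10 probes and 381.1 to 416.4 FPKM with LacZ probes. In 2 of the 10 the libraries did not overlap, both lower with SNHG10 probes, against 11.4% of all tested genes without overlap. HLA-DPB1, a class II chain, averaged 1.76 ± 0.72 FPKM with SNHG10 probes and 4.21 ± 1.53 FPKM with LacZ probes, and HLA-DMB, which helps load class II, averaged 0.68 ± 0.45 and 1.89 ± 0.69 FPKM in the same order (SD, n = 3 each). HLA-DMB lay near the 1 FPKM of the filter. All LacZ libraries reached it, enough to pass, and of the SNHG10 libraries only replicate 3 did, at 1.01 FPKM. Its lack of overlap therefore carries little weight. The abundant class II chain HLA-DRA overlapped, at 80.4, 65.9 and 98.5 FPKM with SNHG10 probes, against 69.2, 80.3 and 71.1 FPKM with LacZ probes, while PTPRC, which marks leukocytes, was not among the rows used here. The summed levels of the 3 lists overlapped between probe sets, though HLA-DPB1, HLA-DMB and EGFL7 did not. The part of the markers in the members' levels was not tested.

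Over the 6 libraries, the genes whose log2(FPKM + 1) followed that of the members' sum most closely were ZNF264 (Pearson r = 0.988), ZNF37A (0.980) and TNFRSF10D (0.979), and those running most against it ARHGAP1 (-0.994), HEG1 (-0.982) and TMEM99 (-0.982). Spearman's rho was 0.943 or above for the first 3 and -0.943 for each of the others. They are descriptions over 6 libraries, 3 of each probe set, chosen as the extremes of 10296 genes, of which 100 exceeded 0.9 and 62 lay below -0.9. CALR, which makes up much of that sum, had r = 0.771 with it.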

How the data were processed

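The unit of the deposited tables is FPKM, given for each transcript, per the file headers. The submitters' processing notes name Bowtie2 2.1.0 and the hg19 build; the program that estimated FPKM is not given in the sources used here. FPKM are relative to each library's total and keep no read counts, so the depth behind them is unknown and no counting interval or detection limit was computed. The summed FPKM were 268794 to 272909 with SNHG10 probes and 271354 to 277118 with LacZ probes.

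FPKM were summed per gene symbol with Python 3.11.15 and pandas 2.3.3. The gene fit used limma 3.58.1 in R 4.3.3 (lmFit, eBayes with trend = TRUE) with a pseudocount of 1 FPKM, after dropping genes that reached 1 FPKM in fewer than 3 libraries, with Benjamini-Hochberg adjustment over all genes tested and a threshold of 0.05. On this log2(FPKM + 1) scale the differences of low genes are understated; an exact 0 may reflect a failed estimate. Transcript rows were fitted in the same way. Single genes were also compared by the two-sided exact permutation test over 20 assignments. RefSeq promoter windows on GRCh38.p14 were searched for motifs, and the pair of heavy-chain windows was aligned with Biopython 1.88; gene positions are those of the files (hg19).

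Members and gene lists were chosen with earlier results of these data known. Of each list, the 3 tested genes with the smallest unadjusted p and the 2 with the highest mean were open to naming; of the members, all genes, the leading transcript row of each, and rows past the threshold or without overlap. Rows named outside that rule are HLA-B-257, HLA-B-258, HLA-C-203, B2M-202, B2M-208, TAP2-205 and TAPBP-233, chosen after their values were seen. So were HLA-DRA, HLA-DPB1, HLA-DMB, EGFL7, ENG and ROBO4. Some genes that the rule names are left out. Other settings tried were 2 filters, 2 scalings, 2 variance models, 2 pseudocounts, a replicate block, and leaving out libraries in turn. Same-numbered libraries did not deviate together (correlations of 0.0151, 0.0121 and 0.0161), and no pairing was assumed.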

Additional observations from a re-analysis of the deposited data

How the results depend on the processing

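No member gene passed the threshold under any alternative, and the lowest limma adjusted p of a member gene was 0.879. Among the member rows named in the text, B2M-204 reached 0.249 without SNHG10 replicate 2 and TAP2-205 reached 0.246 without SNHG10 replicate 1. Calls over the whole table were few: leaving out 1 library gave 0 to 1 genes higher with SNHG10 probes (1 without LacZ replicate 2) and 0 to 1 lower (1 without SNHG10 replicate 1). Genes without overlap numbered 1178, with 2106 to 2195 when a library was left out and 785 with a mean of at least 5 FPKM. Members without overlap, 2 in number, fell to 0 with median-ratio scaling and to 0 with quantile normalization. Transcript rows higher with SNHG10 probes were 8, with 0 under the replicate block, 0 to 0 with a library left out, 3 with no filter, with a mean of at least 5 FPKM or with a pseudocount of 0.1 or 5, and 26 without the trend. Rows lower were 7, with 0 under the replicate block, 0 to 0 with a library left out, 3 with no filter or a mean of at least 5 FPKM, 2 with a pseudocount of 0.1 or 5, and 27 without the trend. The replicate block changed no other call. The cause was not tested. Of 863 values under alternatives, 785 kept their direction, side of the threshold or size.

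Signs turned with scaling for HLA-B (0.000335, median ratio), CALR (-0.0171, quantile) and CALR-201 (0.0353, median ratio), and, by median ratio and quantile in turn, for LTA4H (0.0288 and 0.0127), RELA (0.0259 and 0.00506), STAT3 (0.00949 and 0.00822) and PTPN11 (0.0417 and 0.0198). With a library left out, log2 differences ranged from -0.419 to 0.417 for HLA-B, -0.0273 to 0.575 for B2M, -0.0473 to 0.224 for TAP1, -0.155 to 0.00505 for TAP2, -0.14 to 0.143 for CALR, -0.396 to 0.35 for HLA-B-249 and -0.211 to 0.105 for CALR-201. Among list genes the ranges that crossed 0 were -0.0403 to 0.0975 for HSPA5, -0.146 to 0.211 for PSMB6, -0.124 to 0.0616 for LTA4H, -0.399 to 0.0126 for NPEPPS, -0.0185 to 1.44 for SYVN1, -0.056 to 0.0702 for VCP, -0.118 to 0.136 for MARCH4, -0.103 to 0.203 for NFYB, -0.279 to 0.345 for RELA and -0.291 to 0.133 for PTPN11. TAPBP kept its sign, from -0.438 to -0.184, as did ERAP1, from -0.555 to -0.305, and HLA-E, from 0.0256 to 0.226. The unknown depth limits low rows most, and 3 libraries a group limit all comparisons.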
